A study of Mus musculus with 2 samples.

Results

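The genes described here encode the heat shock protein chaperones and the J-domain proteins that partner them. Symbols beginning Hsp90, Hspa, Hspb, Hspd, Hspe, Hsph, Dnaja, Dnajb or Dnajc followed by a digit were taken from the annotation, which gave 86 genes, and the 72 genes with at least 1 transcript annotated protein_coding were kept. They stand among 55536 annotated genes, of which 22028 are protein-coding. The 14 genes left out are pseudogenes, which together had 5.47 TPM in replicate 1 and 4.33 in replicate 2 (TPM is a level scaled to sequencing depth and corrected for transcript length).

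The data are 2 total RNA-seq libraries, depleted of ribosomal RNA and stranded, from adrenal tissue of B6CASTF1/J females at 4 days of age. B6CASTF1/J is an F1 cross of laboratory and Castaneus-derived strains. Each library began with 300 ng of RNA and carried an ERCC spike-in. The labels give no treatment, mutation or other group, so no condition could be compared. The libraries are treated here as 2 biological replicates of 1 group, from 2 animals. The labels disagree on the animal of replicate 2, and both replicates carry the same donor record. What the data allow is the level of each gene in each animal, the ratios among genes, and the size of the difference between the animals.

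Molecular chaperones bind proteins that are unfolded or only partly folded and let them reach or regain their shape. Hsp70 proteins clamp onto exposed stretches of a client in a cycle driven by ATP. J-domain proteins deliver clients and trigger ATP hydrolysis, and nucleotide exchange factors, the Hsp110 proteins among them, open the clamp again. Hsp90 acts later on a narrower set of clients that includes the steroid hormone receptors, chaperonins enclose whole proteins in a chamber, and small heat shock proteins hold unfolded proteins without ATP. The adrenal cortex makes steroid hormones in its mitochondria and endoplasmic reticulum (ER), and the medulla secretes catecholamines, so each of those compartments has its own chaperones to describe.

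The expected counts summed to 31838341 in replicate 1 and 32931868 in replicate 2. All 8 cortical markers, Cyp11a1 and Star among them, were at 1 TPM or more in both animals. So were all 6 chromaffin markers, Th and Chga among them. The cortical markers summed to 6168 TPM in replicate 1 and 6749 in replicate 2, and the chromaffin markers to 1847 and 2162 TPM. All 6 skeletal muscle and all 5 liver markers passed 1 TPM as well, so passing it does not by itself identify the tissue. The libraries also differed in marker genes of other tissues, and where that RNA came from was not tested. The 6 skeletal muscle markers summed to 338 TPM in replicate 1 and 2110 in replicate 2, and the 5 liver markers to 92.7 and 372 TPM in the same order. The 5 exocrine pancreas markers summed to 3322 TPM in replicate 1 and 0.49 in replicate 2, and the 5 kidney markers to 86.4 and 8.83 TPM. In whole tissue, fewer cells of a type and less RNA per cell cannot be told apart.

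Of the 72 chaperone genes, 63 were at 1 TPM or more in both animals, which is 87.5% of them beside 59.3% of all protein-coding genes. Levels of 10 TPM or more in both animals were reached by 42 of them and 100 TPM or more by 10. The shares of all protein-coding genes at those levels are not given here, so these counts are descriptions only. Their median was 13.6 TPM, against 3.72 TPM over all protein-coding genes. Among genes at 1 TPM or more in both animals the medians were closer, 15.0 TPM for the chaperones and 12.4 TPM for nuclear protein-coding genes. Together they had 3414 ± 94.4 TPM (SD, n = 2), which was 0.848% of the TPM of protein-coding genes in replicate 1 and 0.890% in replicate 2. Only 5 genes, Hsp90ab1, Hspa8, Hspd1, Hsp90b1 and Hspa5, held 50% of that sum. Among 22015 nuclear protein-coding genes ranked by mean level, Hsp90ab1 stood at place 31 and Hspa8 at place 43, and 9 chaperone genes stood in the first 500.

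**Figure D1:**
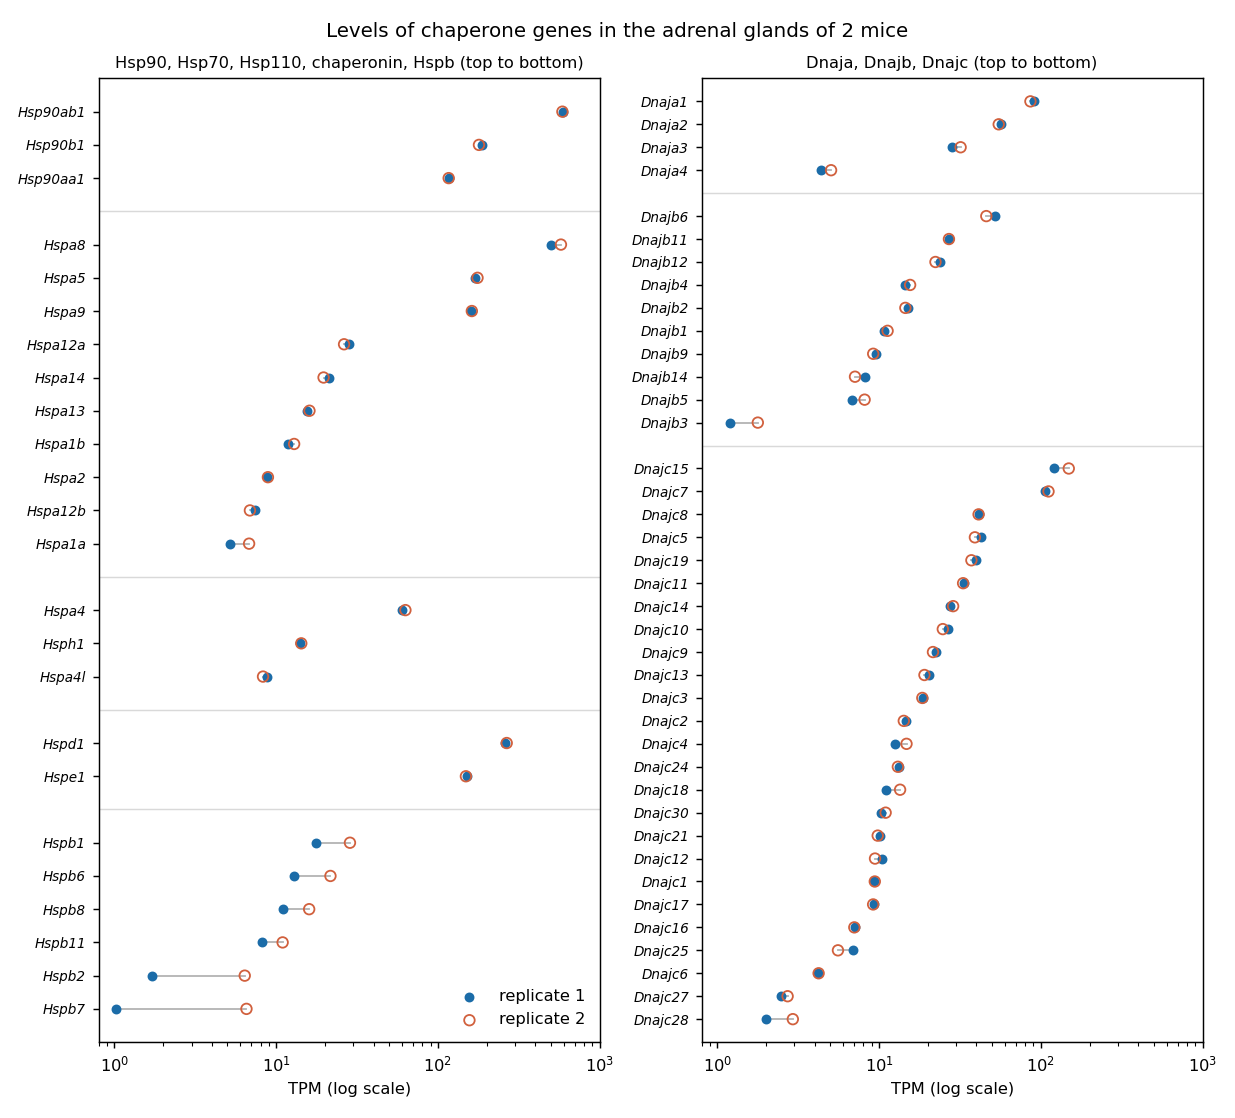
TPM on a log axis of the 63 chaperone genes at 1 TPM or more in both animals, grouped by class from top to bottom, with a filled point for replicate 1, an open point for replicate 2 and a line joining them. Most pairs of points lie on each other; the Hspb genes at the foot of the left panel lie furthest apart, with Hspb7 at 1.02 and 6.55 TPM.

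The Hsp90 class, with 3 genes, held 898 TPM in replicate 1 and 884 in replicate 2. Hsp90ab1, the cytosolic form made in unstressed cells, had 594 and 588 TPM in replicates 1 and 2. Hsp90aa1, the cytosolic form that stress induces, had 116 and 117 TPM. The Hsp90ab1 level was 5.07 times the Hsp90aa1 level (log2 ratio 2.34 ± 0.01, SD, n = 2), and the ratio was higher than 1 in both animals. Hsp90b1, the Hsp90 of the ER lumen also called Grp94, had 188 and 179 TPM.

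Of the listed co-chaperones of cytosolic Hsp90, 16 of 16 were at 1 TPM or more in both animals, beside 59.3% of all protein-coding genes. This share also stands beside the counts of the other lists of partner genes. The lists were chosen with earlier results of these data known, so their counts are descriptions only. The highest were Fkbp4, an immunophilin found in steroid receptor complexes, at 69.4 and 77.1 TPM in replicates 1 and 2, and Cdc37, which brings kinases to Hsp90, at 67.9 and 67.0 TPM. Of 5 steroid receptors that Hsp90 holds, 4 reached 1 TPM in both animals. The glucocorticoid receptor Nr3c1 had 19.1 and 20.3 TPM, and the progesterone receptor Pgr was at 0.20 and 0.08 TPM.

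The Hsp70 class had 11 genes, 10 of them at 1 TPM or more in both animals, and 930 TPM in replicate 1 and 1011 in replicate 2. Hspa8, the constitutive cytosolic Hsc70, made up most of it with 503 and 576 TPM. The stress-inducible genes Hspa1a and Hspa1b were far lower, Hspa1a at 5.17 and 6.80 TPM and Hspa1b at 11.8 and 12.9 TPM in replicates 1 and 2. Hspa8 was thus 90.7 times as high as Hspa1a (log2 ratio 6.50 ± 0.14, SD, n = 2) and 43.5 times as high as Hspa1b (log2 ratio 5.44 ± 0.05). Hspa1b exceeded Hspa1a in both animals, with a log2 ratio of 1.06 ± 0.19.

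Hspa1a and Hspa1b are neighbours on chromosome 17 and each has a lone exon, and reads can match both. Their annotated transcripts of 2967 and 2803 bases aligned over 2771 bases with 90.7% identity, and 47.1% of the 100-base words of Hspa1a occur in Hspa1b. The deposited posterior standard deviation of the count was 4.34% and 3.46% of the count for Hspa1a in replicates 1 and 2, and 2.01% and 1.92% for Hspa1b. Hspb1 was the only other chaperone gene with a mean count of 100 or more where it passed 1% in both animals, at 1.62% and 1.33%. The split between Hspa1a and Hspa1b is therefore less certain than their sum, which was 17.0 TPM in replicate 1 and 19.7 in replicate 2.

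The remaining cytosolic and atypical Hsp70 genes lay in a middle range. Hspa12a, a distant relative, had 28.0 and 26.3 TPM and its paralogue Hspa12b 7.39 and 6.88 TPM. Hspa14, which works at the ribosome, had 21.2 and 19.6 TPM, and Hspa2, best known from male germ cells, had 8.73 and 8.89 TPM. Hspa1l, the third gene of the chromosome 17 cluster and also known from testis, was at 0.14 and 0.29 TPM.

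The Hsp110 class, which exchanges nucleotide on Hsp70, had 82.8 TPM in replicate 1 and 85.5 in replicate 2. Hspa4 led with 60.0 and 62.9 TPM, Hsph1 had 14.0 and 14.3 TPM, and Hspa4l had 8.78 and 8.29 TPM. The 13 other listed exchange factors and Hsp70 regulators were all at 1 TPM or more in both animals, beside 59.3% of all protein-coding genes. The highest were Bag6 at 155 and 146 TPM and Bag1 at 80.4 and 89.7 TPM. Another list held the transcription factors that control the heat shock genes, with Hsbp1, the inhibitory binding partner of Hsf1. Hsf1, the main activator, had 23.7 and 24.8 TPM, and Hsbp1 had 65.8 and 68.8 TPM. Hsf1 lay below Bag6 and Bag1 but above 15.0 TPM, the median of the chaperone genes at 1 TPM or more in both animals. Of the 5 genes on that list, 3 reached 1 TPM in both animals.

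The mitochondrial chaperones were the other large group. Hspd1, the Hsp60 chaperonin, had 260 and 266 TPM in replicates 1 and 2, and its lid Hspe1, or Hsp10, had 151 and 149 TPM. The Hspe1 level was 0.571 of the Hspd1 level (log2 ratio -0.81 ± 0.04, SD, n = 2). Hspa9, the mitochondrial Hsp70 or mortalin, had 160 and 162 TPM, 5.38 times its J-domain partner Dnaja3, which had 28.1 and 31.9 TPM. With Dnajc11, Dnajc15, Dnajc19 and Dnajc30, the 8 genes assigned to mitochondria held 803 of the 3347 chaperone TPM in replicate 1 and 839 of 3481 in replicate 2. Of the listed mitochondrial partners 6 of 6 were present, beside 59.3% of all protein-coding genes. They were led by the protease Lonp1 at 114 and 111 TPM and the mitochondrial Hsp90 Trap1 at 55.6 and 57.4 TPM.

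Hspd1 and Hspe1 lie head to head on chromosome 1, and their annotated ends overlap between positions 55088132 and 55088243. Their start sites lie so close that the promoter windows in RefSeq, GRCm38.p6 (250 bases before and 50 bases after each start, 300 in all), cover largely the same DNA. Such windows were found for 58 of the 72 genes. They were searched on both strands for the heat shock element, the site of heat shock factors, read as GAA, TTC and GAA with gaps of 2 bases between them, and for the ER stress element, read as CCAAT and CCACG with 9 bases between them. The heat shock element occurred in 4 of the 58 genes, against 0.662% of 27025 genes with a window. Hspd1 and Hspe1 are 2 of those 4 and share the same matched stretch of DNA, so they are not independent. The ER stress element occurred in 3 of the 58 genes, against 0.137%. No window of these genes held both motifs. A match is a description of the sequence and not a measured binding site.

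The stretch between the RefSeq starts of Hspd1 and Hspe1 is shown on the Hspe1 strand because 2 overlapping matches, 1 on each strand, stand there for both genes, at chr1:55088029-55088106. The Hsph1 and Dnajb6 stretches follow at chr5:149636266-149636330 on the minus strand and chr5:29735822-29735894 on the plus strand. Capitals mark the heat shock element.
Hspe1 and Hspd1: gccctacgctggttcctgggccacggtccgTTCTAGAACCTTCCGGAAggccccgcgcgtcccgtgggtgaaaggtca
Hsph1: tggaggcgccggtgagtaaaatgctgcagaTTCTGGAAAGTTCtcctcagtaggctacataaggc
Dnajb6: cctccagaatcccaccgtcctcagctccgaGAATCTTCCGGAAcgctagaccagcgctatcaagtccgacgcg

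The 4 genes with the element differed widely in level. Hspd1 and Hspe1 stood at 260 and 151 TPM in replicate 1, Dnajb6 at 52.2 TPM and Hsph1 at 14.0 TPM. No match was found in the windows of the other genes, which says only that those letters are not in those windows.

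The ER lumen held 13.8% of the chaperone TPM in replicate 1 and 13.2% in replicate 2, in 8 genes. Hspa5, the ER Hsp70 called BiP, had 169 and 176 TPM and was close to Hsp90b1, with a log2 ratio of -0.09 ± 0.09 (SD, n = 2). In the second deposited quantification the sign turned, to 0.29, so the order of Hspa5 and Hsp90b1 was not settled. The J-domain partners of BiP were lower. Dnajb11 had 27.1 and 27.0 TPM, Dnajc10, a J protein with disulphide reductase activity, had 26.7 and 24.8 TPM, and Dnajc3 had 18.6 and 18.5 TPM. Hspa13, Dnajb9 and Dnajc1 had mean levels of 15.8, 9.41 and 9.38 TPM.

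The ER stress element was found in the windows of Hspa5, Hsp90b1 and Dnajc3. They are shown because the 3 genes share a compartment and the motif, with capitals marking the element, which stands on both strands in Hsp90b1. The positions are chr2:34771995-34772073 on the plus strand for Hspa5, chr10:86705503-86705686 on the minus strand for Hsp90b1 and chr14:118937797-118937875 on the plus strand for Dnajc3.
Hspa5: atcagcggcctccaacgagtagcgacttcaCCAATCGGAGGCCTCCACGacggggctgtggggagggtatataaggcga
Hsp90b1: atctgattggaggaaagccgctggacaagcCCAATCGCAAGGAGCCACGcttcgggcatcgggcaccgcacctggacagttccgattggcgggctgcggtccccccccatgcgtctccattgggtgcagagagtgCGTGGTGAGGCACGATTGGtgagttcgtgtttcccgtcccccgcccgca
Dnajc3: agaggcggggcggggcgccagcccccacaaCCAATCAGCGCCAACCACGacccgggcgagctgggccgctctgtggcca

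Hspa5 and Hsp90b1 differed little between the animals, with log2 ratios of replicate 2 over replicate 1 of 0.09 and 0.00. Dnajc3 was likewise at 0.04. The other listed ER folding genes were 14 of 14 present, beside 59.3% of all protein-coding genes. The calcium-binding lectin chaperone Calr had 190 and 186 TPM and the disulphide isomerase P4hb 190 and 178 TPM in replicates 1 and 2. The ER stress markers Ddit3 and Herpud1 had mean levels of 14.7 and 24.3 TPM.

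J-domain genes were the most numerous, 45 in all with 39 at 1 TPM or more in both animals, and made up 972 TPM of the total in replicate 1 against 993 in replicate 2. The 4 Dnaja genes, built like bacterial DnaJ, summed to 179 and 178 TPM. Dnaja1 had 90.2 and 86.3 TPM and Dnaja2 56.6 and 54.9 TPM. Both are general partners of Hspa8. Dnaja4 was the lowest at 4.39 and 5.05 TPM.

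The 13 Dnajb genes summed to 169 and 163 TPM, with 10 present in both animals. Dnajb6, which keeps aggregation-prone proteins soluble, led with 52.2 and 46.0 TPM. Dnajb12 of the ER membrane had 23.7 and 22.3 TPM, and its relative Dnajb14 had 8.13 and 7.10 TPM. Dnajb1, the stress-inducible Hsp40, had 10.7 and 11.3 TPM, so that Dnaja1 exceeded it 8.03 times (log2 ratio 3.01 ± 0.10, SD, n = 2). The log2 ratio was 2.01 over protein_coding transcripts alone and 3.49 in the second quantification. Dnajb4 and Dnajb2 had mean levels of 15.0 and 14.9 TPM.

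The 28 Dnajc genes, which share little with one another outside the J domain, summed to 624 TPM in replicate 1 and 652 in replicate 2, with 25 present in both. Dnajc15, a homologue of the J protein of the yeast mitochondrial import motor, was the highest J-domain gene at 120 and 149 TPM. Its paralogue Dnajc19 had 39.9 and 37.2 TPM. Dnajc7, which binds both Hsp70 and Hsp90, had 106 and 112 TPM, and Dnajc8, a splicing-associated protein, had 41.3 and 41.2 TPM.

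Several Dnajc genes act in vesicle traffic. Dnajc5, the cysteine string protein of secretory vesicles, had 42.9 and 39.1 TPM, and Dnajc13, an endosomal protein, had 20.4 and 19.1 TPM. Dnajc6, the neuronal auxilin that strips clathrin coats, had 4.18 and 4.23 TPM, while Gak, its broadly expressed relative that carries no Dnaj symbol, had 34.04 and 28.9 TPM. Dnajc12, which binds the aromatic amino acid hydroxylases, was at 10.4 and 9.44 TPM. The histone-binding Dnajc9 had 22.4 and 21.5 TPM, and the ribosome-associated Dnajc2 had 14.7 and 14.2 TPM.

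**Figure D2:**
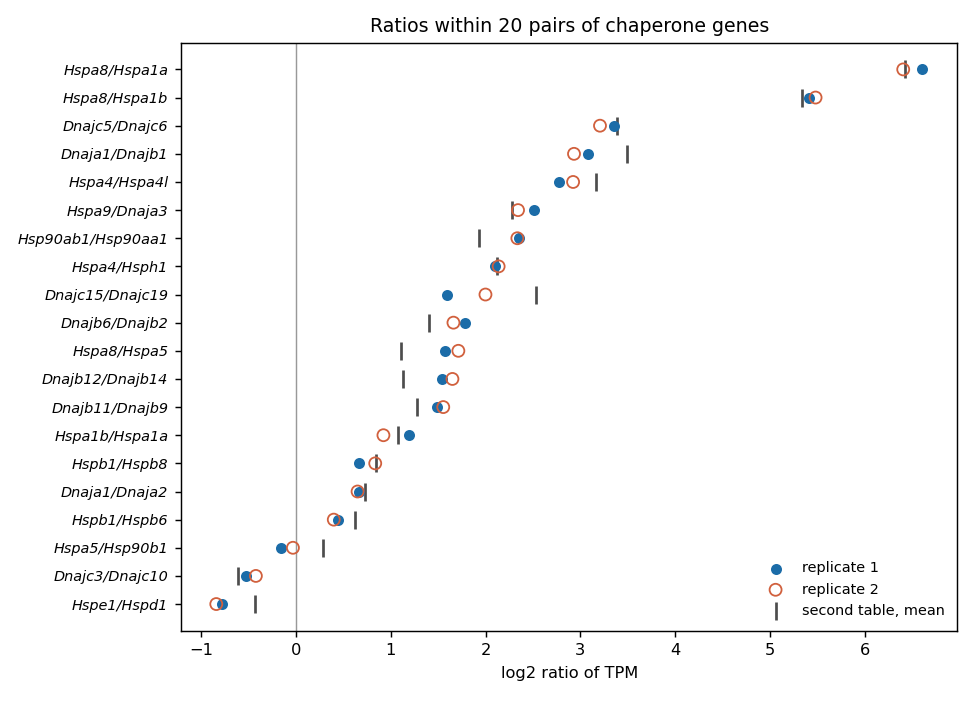
Log2 ratio of TPM within 20 pairs of chaperone genes, with a filled point for replicate 1, an open point for replicate 2 and a bar for the mean in the second quantification. The animals agree closely within most pairs, and the 2 quantifications differ more, as in Hspa5/Hsp90b1 at -0.09 and 0.29.

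The 9 genes that missed 1 TPM in at least 1 animal were mostly genes known from testis. Dnajb8 and Dnajc5g had no read in either animal, which allows a share of up to 9.42e-06% of the counts in replicate 1 and 9.11e-06% in replicate 2. Dnajb7, Dnajb13 and Dnajc5b were each at 0.10 TPM or less, and Hspb9 at 0.36 and 0.11 TPM. The 4 testis markers examined beside them summed to 0 TPM in replicate 1 and 0.03 in replicate 2. Dnajc22 had 1.33 and 0.99 TPM, and Hspb3 had 0.33 and 1.66 TPM. Hspa1l completes the 9. Dnajb3, a gene with a lone exon, passed at 1.19 and 1.78 TPM on 35 and 54 reads.

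The difference between the animals was largest in the small heat shock proteins. Ratios of replicate 2 over replicate 1 were computed from expected counts scaled by TMM, and a gene was called different where the ratio reached 2-fold at a mean count of 100 or more. Of the 61 chaperone genes with that count, 1 gene, Hspb7, was called. Over all 13734 genes with that count, 3.21% were called in either direction and 1.5% with the higher value in replicate 2. The count among the chaperones, 1 of 61, is near that background.

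Hspb7, a small heat shock protein of heart and skeletal muscle, had 84 counts in replicate 1 and 557 in replicate 2. Its log2 ratio was 2.72, with a 95% counting interval of 2.39 to 3.07. Hspb2 and Hspb3, both known from muscle, were past 2-fold as well but had fewer reads. Hspb2 had 32 and 122 counts in replicates 1 and 2 (log2 ratio 1.91, interval 1.36 to 2.54), and Hspb3 had 7 and 36 counts (2.28, interval 1.17 to 3.77). Replicate 2 was the higher animal for all 3 genes. At a mean count of 20 or more they were the only chaperone genes past 2-fold, and 2.37% of all genes with that count were 2-fold or more higher in replicate 2.

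The more abundant small heat shock genes were also higher in replicate 2, by less than 2-fold. Hspb1, or Hsp25, had 17.65 TPM in replicate 1 and 28.6 in replicate 2, a log2 ratio of 0.74 (interval 0.57 to 0.91). Hspb6, a small heat shock protein of smooth and striated muscle, had 13.0 and 21.65 TPM, a log2 ratio of 0.77 (interval 0.61 to 0.93). Hspb8, which works with Bag3, had 11.1 and 15.99 TPM, a log2 ratio of 0.57 (interval 0.42 to 0.73). Hspb11, an intraflagellar transport protein that shares the symbol, had 8.17 and 10.96 TPM, a log2 ratio of 0.35 (interval 0.02 to 0.69). Hspb9 went the other way on 7 and 2 counts.

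All 5 Hspb genes with a mean count of 100 or more were thus higher in replicate 2, between 0.35 and 2.72 on the log2 scale. The 56 other chaperone genes with that count lay between -0.14 and 0.52. The Hspb sum was 53.3 TPM in replicate 1 and 91.9 in replicate 2, a difference of 72.5% of the replicate 1 value. The sums of the other 7 classes differed by less, from -3.55% for Dnajb to 8.73% for Hsp70.

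**Figure D3:**
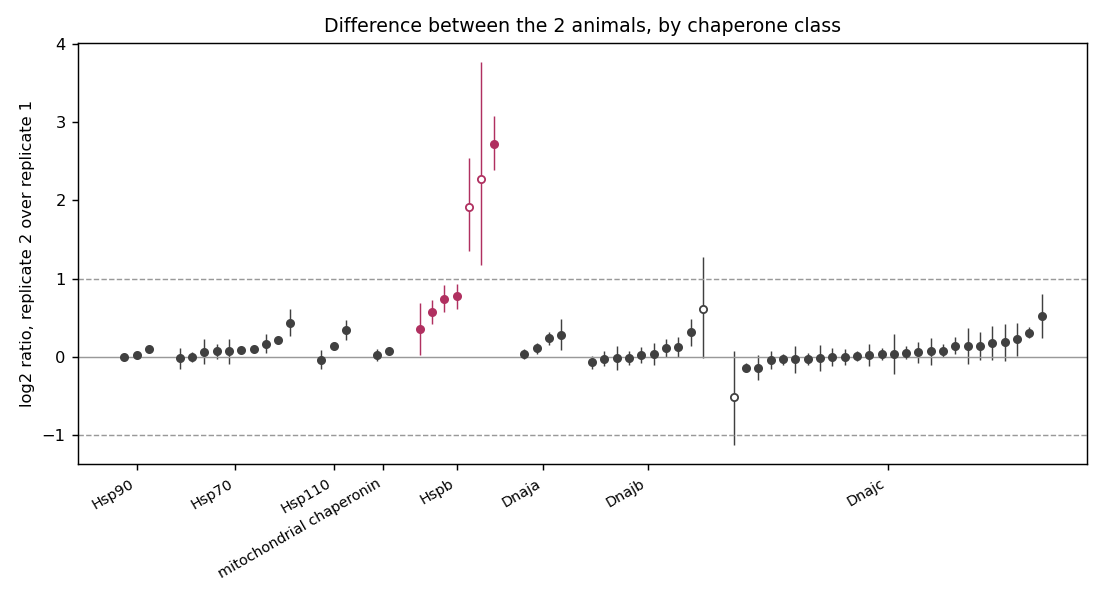
Log2 ratio of replicate 2 over replicate 1 from TMM-scaled counts for chaperone genes with a mean count of 20 or more, by class, with 95% counting intervals; filled points have a mean count of 100 or more, open points fewer, and dashed lines mark 2-fold. The 7 Hspb genes shown all lie above 0, from 0.35 upward, and the other classes lie between Dnajc22 at -0.51 and Dnajb3 at 0.61.

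Skeletal muscle markers moved with these genes. All 6 skeletal muscle markers were at least 2-fold higher in replicate 2. Acta1, the muscle actin, had 128 TPM in replicate 1 and 840 in replicate 2 (log2 ratio 2.75), and Ckm, muscle creatine kinase, had 36.9 and 259 TPM (log2 ratio 2.83). The ratio of 2.72 for Hspb7 lay between that of Myh8, 2.54, and that of Ckm. Myh3 had the lowest ratio of the 6, 1.03. The 5 liver markers were also at least 2-fold higher in replicate 2, with log2 ratios from 1.19 for Ttr to 2.20 for Alb. Of the 3 heart markers, Myh6 was at 0.29 and 6.21 TPM, and Nppa and Myl7 were at 0.20 TPM or less in both animals. The 3 fibroblast markers summed to 772 and 917 TPM. The part of muscle RNA in the Hspb difference was not tested.

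Cryab, the alpha B-crystallin gene, is a small heat shock protein without an Hspb symbol and had 17.1 TPM in replicate 1 and 46.9 in replicate 2 (log2 ratio 1.52, interval 1.34 to 1.71). It lies beside Hspb2 on chromosome 9, on the opposite strand, and exons of the 2 genes overlap. Cryab was the only gene of the 6 further J proteins and small heat shock proteins listed to reach 2-fold at a mean count of 100 or more. Unc45b, the muscle-specific Hsp90 co-chaperone for myosin, had 259 counts in replicate 1 and 474 in replicate 2. Its log2 ratio by counts was 0.87 (interval 0.65 to 1.09), the largest among the 16 co-chaperones. By TPM the animals were close, with Unc45b at 5.32 and 5.59, and the second quantification gave it 9.08 and 11.2. Its paralogue Unc45a, which is broadly expressed, had a log2 ratio of -0.07.

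**Figure D4:**
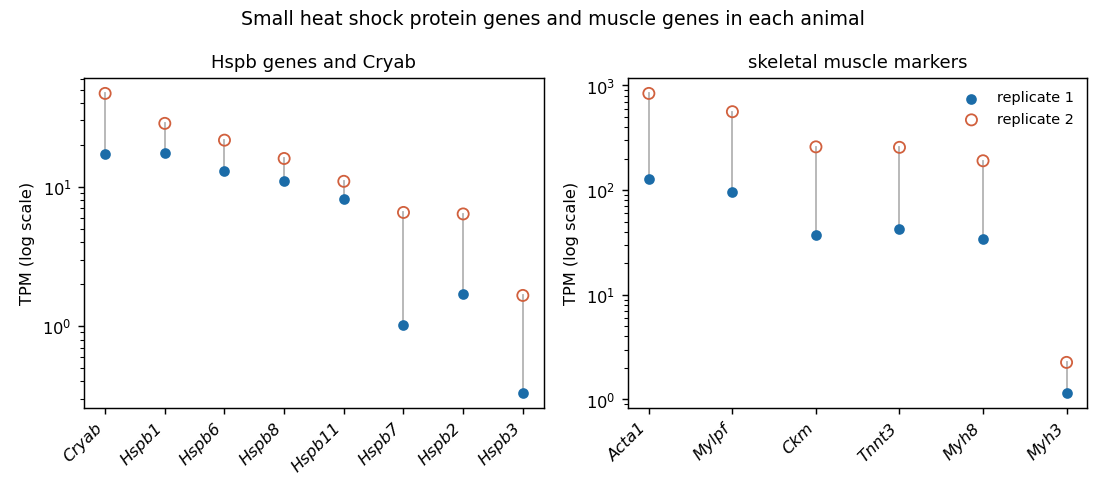
TPM on log axes of 7 Hspb genes and Cryab (left) and of 6 skeletal muscle markers (right), with a filled point for replicate 1 and an open point for replicate 2. Every gene shown lies higher in replicate 2, from Hspb11 at 8.17 and 10.96 TPM to Acta1 at 127.86 and 839.82 TPM. Hspb9, which went the other way at 0.36 and 0.11 TPM, was left out.

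Over all 61 genes, the Hspb genes included, the animals differed about as much as over the whole annotation. The median absolute log2 ratio over the 61 chaperone genes was 0.08, against 0.11 over all genes with that count, and 82.0% of the chaperones lay within 0.25 against 80.7% of all genes. Replicate 2 was the higher for 45 of 61, beside 55.3% of all genes. That count depended on the scaling. With spike-in scaling, which put the median of all genes at -0.06 instead of 0.02, replicate 2 was the higher for 27 of 61 chaperones and for 34.3% of all genes, and all 5 Hspb genes stayed above 0.

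The inducible genes, singled out after their values were seen, all differed by less than 2-fold, but not all differed little. By scaled counts Hspa1a and Hsph1 lay beyond 0.25 on the log2 scale, a distance within which 80.7% of all genes with the minimum count lay. Hspa1b, Hsp90aa1 and Dnajb1 lay within that distance. Hspa1a had a log2 ratio of 0.44 (interval 0.26 to 0.62) and Hspa1b of 0.17 (interval 0.04 to 0.29). Hsph1 was at 0.34 (interval 0.21 to 0.47) by scaled counts but at 0.03 by deposited TPM, and Hsp90aa1 was at 0.10 by counts and 0.00 by TPM. Dnajb1 was at 0.13, with an interval of -0.003 to 0.25. Most of the 61 genes were higher in replicate 2 under TMM scaling. With spike-in scaling the ratios were 0.36 for Hspa1a, 0.09 for Hspa1b, 0.26 for Hsph1, 0.02 for Hsp90aa1 and 0.05 for Dnajb1. What their shared sign reflects was not tested. Among the 16 co-chaperones of Hsp90, Chordc1 was at 0.39 and Fkbp5 and Cdc37l1 at -0.18 and -0.19. Of the immediate early genes, which respond within minutes to handling or stimulation, Junb had 9.32 and 18.2 TPM in replicates 1 and 2 (log2 ratio 1.03), Egr1 10.7 and 16.1 TPM (0.64) and Fos 2.95 and 4.51 TPM (0.69), while Jun was at 20.9 and 20.8 TPM. Their part in the difference was not tested. With 2 animals, no spread within a condition could be set against these ratios, and the intervals cover counting error only.

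Of the 10 genes at 100 TPM or more in both animals, Dnajc15 differed most, with 2915 counts in replicate 1 and 3625 in replicate 2 (log2 ratio 0.31, interval 0.24 to 0.38). Hspa8 followed at 0.21 (interval 0.19 to 0.23). Dnajc5 was at -0.14 (interval -0.20 to -0.08). Among genes with a mean count of 100 or more, Dnajc28 had the highest ratio outside the Hspb class, 0.52, on 187 and 269 counts.

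A gene's TPM sums all its annotated transcripts, including those not annotated as coding. Protein_coding transcripts carried 81.3% of the chaperone TPM in replicate 1 and 81.1% in replicate 2, against 82.8% and 84.1% over all protein-coding genes. Among the 10 genes at 100 TPM or more in both animals, Hspd1, Hspe1, Hsp90ab1 and Hsp90b1 stood at 95% or more in this share on average. At 5 TPM or more, 6 of 56 chaperone genes had a leading transcript, the highest by TPM, that was not protein_coding. That is 10.7%, beside 6.89% of all protein-coding genes. The 6 were Dnaja1, Dnajc5, Dnajc7, Dnajc15, Dnajc19 and Dnajc24, all of them J-domain genes. In the second quantification it was 5 of 58, or 8.62% beside 9.16% of all protein-coding genes, and 2 of the 5, Hspb6 and Hsph1, were not J-domain genes. The share was therefore above that of all genes in the first quantification and below it in the second.

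Dnajc15 stood furthest from the rest. Its processed transcript Dnajc15-203, of 419 bases, held 53.7% and 53.3% of the gene's TPM in replicates 1 and 2. Dnajc15-201, annotated for nonsense-mediated decay (the pathway that destroys RNAs with early stop codons), held 40.0% and 40.8%. The protein_coding transcript Dnajc15-202, of 6193 bases, held 6.30% and 5.90%, or 7.59 and 8.78 TPM. By counts the order differed, because Dnajc15-202 is the longest and took 48.9% and 47.0% of the reads. Counted over protein_coding transcripts alone, Dnajc15 dropped to place 47 of the chaperone genes and fell below Dnajc19, with a log2 ratio of -1.07.

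The transcripts of Dnajc15 share exons, and most of Dnajc15-202 is a last exon of 5790 bases, on chromosome 14 from position 77820681 to 77826470. All 256 bases of the last exon of Dnajc15-203 and all 124 bases of that of Dnajc15-201 lie inside it. The second quantification also gave Dnajc15-203 the largest share, 60.1% and 59.0%. The place of Dnajc15 among the chaperones thus depended on which of its transcripts were counted.

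For the other 5 genes the leading transcript was less secure. Dnajc5-204, annotated for nonsense-mediated decay, led Dnajc5 in both quantifications, with a mean of 33.6% of the gene's TPM in the first. In Dnaja1 the processed transcript Dnaja1-206 had 37.4% and 33.8% of TPM, while the second quantification gave it 0. In Dnajc19 the retained-intron transcript Dnajc19-205 had 52.1% and 58.6%, and the second quantification again gave 0. Only Dnajc5 and Dnajc15 had a leading transcript that was not protein_coding in both quantifications.

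Hspa8 showed the same dependence between its coding transcripts. Hspa8-202 held 44.1% and 43.2% of the gene's TPM and Hspa8-201 30.4% and 29.6% in replicates 1 and 2. In the second quantification Hspa8-201 held 81.6% and 77.0% and Hspa8-202 0.13% and 0. All 2019 bases of Hspa8-202 aligned to identical bases of Hspa8-201. Of the 100-base words of Hspa8-202, 94.9% occur in Hspa8-201, so not all of its stretches are shared. The gene total of Hspa8 kept its second place among the chaperones by coding transcripts as well, with 375 and 424 TPM.

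**Figure D5:**
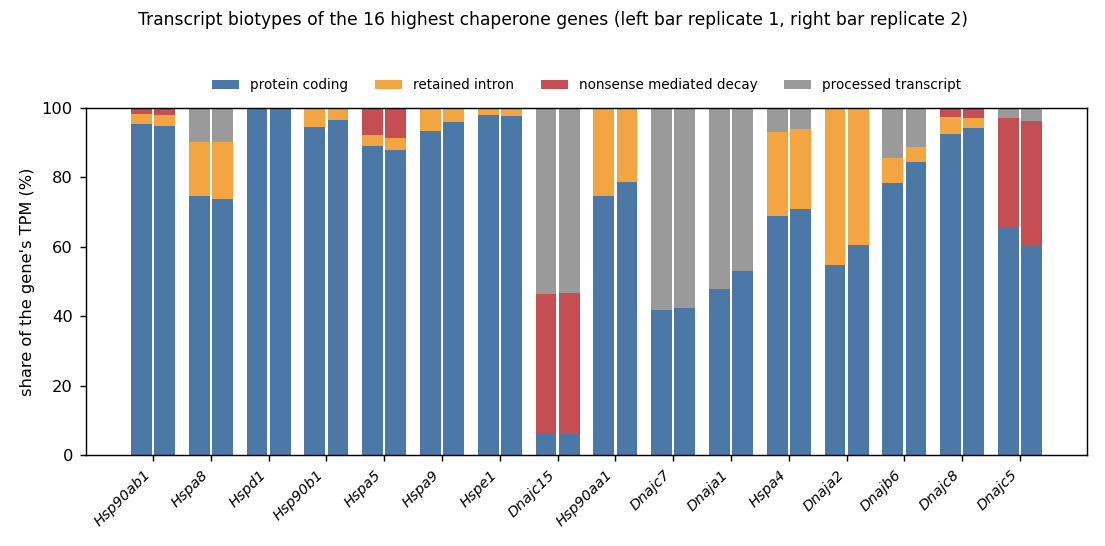
Share of each gene's TPM, in percent, held by transcripts of each annotated biotype for the 16 highest chaperone genes, with replicate 1 as the left bar and replicate 2 as the right bar of each pair. Coding transcripts fill nearly the whole bar of Hspd1, while Dnajc15 has 6.30% and 5.90% in them and Dnajc7 and Dnaja1 about equal parts coding and processed transcripts.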

How the data were processed

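Expected counts and TPM per gene and transcript were used as the authors deposited them, with the posterior standard deviation of the count. Per the deposited notes the assembly was mm10 and the annotation M21; no aligner, quantifier or version is named (not given in the sources used here). A second deposited transcript table, with estimated counts and TPM, was added up per gene and is the second quantification of the text. The labels disagree on the animal of replicate 2: its tissue text names another female than its library text, and both replicates carry the same donor record.

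The chaperone genes, the 20 pairs, the 9 lists of partner genes and the marker lists were chosen with earlier results of these data known. Genes were named by a rule: the 3 highest of each class, genes past 2-fold, both genes of each pair, genes whose leading transcript is not protein_coding, the 2 highest of each list, and genes under 1 TPM; Hspb2 and Hspb3, the inducible and mitochondrial genes and the other genes given values were added after their values were seen. Of the genes the rule takes, 1 is not reported here.

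Expected counts were rounded and scaled by TMM (edgeR 4.0.16, R 4.3.3). Log2 ratios used a prior count of 0.5, and their 95% intervals are exact conditional binomial intervals. Pair ratios used a pseudocount of 0.01 TPM. Means are given ± SD over 2 replicates. No test across samples was possible with 1 group. The ratio and its interval were tested on simulated data. Intervals and the floor of 3 counts cover counting error only, since reads lacking molecular identifiers can be copies of 1 molecule. Alternatives included DESeq2 1.42.0 size factors, spike-in scaling and the second quantification. Protein sequences are not analysed here.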

Additional observations from a re-analysis of the deposited data

How the results depend on the processing

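No paired analysis was possible because there is 1 group. The 63 genes present stayed within 1.5 times that count under every alternative tried, and were 64 with either replicate left out. Hspb7 remained the only gene called under the other scalings, the second quantification and a prior count of 2, whereas the called genes numbered 5 with no count minimum, 3 at a minimum mean count of 20 and 3 at 1.5-fold. Over all genes at those settings 24.5%, 5.66% and 5.52% were called, against 7.14%, 4.62% and 4.92% of the chaperones.

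Class sums in TPM depended on the quantification. In the second quantification they were 6567 for all genes, 1648 for Hsp90, 1604 for Hsp70, 193 for Hsp110, 809 for the mitochondrial chaperonin, 140 for Hspb, 377 for Dnaja, 322 for Dnajb and 1475 for Dnajc. Protein-coding genes held 39.5% of TPM in replicate 1 of the first table and 77.2% in the second, and the chaperones' share of protein-coding TPM was 0.848% and 0.835%. Over protein_coding transcripts alone, an alternative chosen after seeing the data, the sums were 2772 for all genes, 826 for Hsp90, 789 for Hsp70, 60.25 for Hsp110, 410 for the chaperonin, 111 for Dnaja, 149 for Dnajb and 358 for Dnajc. Posterior mean TPM gave 879 for Hsp90, 405 for the chaperonin and 176 for Dnaja.

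Among pairs, the log2 ratio of Hspa5 to Hsp90b1 reversed to 0.29 in the second quantification and that of Dnajc15 to Dnajc19 to -1.07 over protein_coding transcripts. The other 18 pairs kept their direction. By more than 1 SD, 14 of the 20 pairs moved without reversing in the second quantification and 13 over protein_coding transcripts. Counts under 100 limit Hspb2 and Hspb3.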
